A study of Mus musculus with 4 samples.

Results

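The nuclear genes of the mitochondrial respiratory chain were chosen by symbol from the 21933 genes of the deposited matrices. Symbols starting with Nduf stood for complex I, Sdha to Sdhd for complex II, Uqcr for complex III, Cox4 to Cox8 for complex IV and Atp5 for complex V. The rule found 95 genes, 47 for complex I, 4 for complex II, 8 for complex III, 18 for complex IV and 18 for complex V. It took no expression value into account. Of these genes, 78 were counted as structural subunits, 8 are Nduf-named assembly factors of complex I, 1 is Cox7a2l, a factor of respiratory supercomplexes, and 8 are isoforms known from restricted tissues. The 78 include Ndufb1-ps, which the annotation types as a long non-coding RNA, and Atp5o under both of its identifiers. The rule also places Ndufa4 in complex I, although its protein is now assigned to complex IV.

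Complexes I to IV pass electrons from NADH and succinate to oxygen, and complexes I, III and IV, but not II, pump protons across the inner mitochondrial membrane. Complex V, the ATP synthase, uses the proton gradient to make ATP. Complex II is encoded by nuclear genes alone, whereas the other complexes combine nuclear subunits with a few that are encoded by mitochondrial DNA. Fast-spiking parvalbumin (PV) interneurons are known for their high density of mitochondria and high demand for ATP, and creatine, which enters neurons through the creatine transporter (CrT), buffers ATP through phosphocreatine.

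Nuclei came from the right cerebral cortex of adult male C57Bl/6J mice. The 2 control animals (CrT+/y) were wild-type littermates of the 2 CrT-KO animals (CrT-/y), which carried a germline, whole-body deletion of part of the X-linked gene Slc6a8. Each library was made from 1 animal and sorted nuclei, and its unique molecular identifiers (UMIs) were counted over whole gene bodies, introns included. The 4 libraries held 51507483 to 65240843 UMIs in 35694 nuclei, with medians of 5548 to 6700.5 UMIs per nucleus, and 96 barcodes occurred in more than 1 library. After 1236 suspected doublets were removed, 32009 of 34458 nuclei were named from marker genes. There were 16710 excitatory neurons, 6543 inhibitory neurons, 5121 oligodendrocytes, 2232 microglia, 660 oligodendrocyte precursors (OPCs), 490 astrocytes and 253 endothelial cells and pericytes. Among inhibitory nuclei, 930 were SST-like, 1224 PV-like, 409 LAMP5-like and 459 VIP-like. Another 2363 were MSN-like, that is they carried markers of striatal projection neurons in a sample labelled as cortex. Levels are given in CPM, the UMIs of a gene or complex scaled to the same total of UMIs for each population in each library, so that they are shares of a population's RNA and not amounts per nucleus.

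The nuclear respiratory chain genes took up a small and even part of each library. They held 296270 UMIs over all nuclei, which was 0.134% and 0.133% of all UMIs in the control libraries and 0.128% and 0.126% in the CrT-KO libraries. UMIs were found for 91 genes, 85 reached 1 CPM over all named nuclei and 39 reached 10 CPM. The 4 genes with no UMI were Cox4i1, Ndufa13, Cox8b and Cox8c. Cox4i1, which encodes a core nuclear subunit of cytochrome c oxidase, overlaps the record Gm20388 on the same strand, and Ndufa13 overlaps Yjefn3, so no level was set for either. In all, 7 of the 95 genes overlapped another gene on the same strand and 27 on the other strand. Atp5o was listed under 2 identifiers, and the longer record (ENSMUSG00000116933, chr16:91684398-91926982, minus strand) also spans Donson and Cryzl1 and is called the Atp5o readthrough record below.

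The genes of the chain were short, with a median gene body of 7382 bp against 17551 bp for all genes, and 84.2% of them were under 20 kb against 53.6% of all genes. Introns were counted. Across the 91 genes with UMIs, Spearman's rho between body length and UMIs was 0.73, a description across genes that are not independent replicates. The 2 leading genes held 27.3% of the UMIs of complex I (Ndufs4, an accessory subunit of the NADH-oxidizing arm, and Ndufs1, its large iron-sulfur subunit), 76.9% of complex II (Sdha, the flavoprotein that oxidizes succinate, and Sdhb, the iron-sulfur subunit), 66.9% of complex III (the core proteins Uqcrc2 and Uqcrc1), 28.2% of complex IV (Cox7c and Cox5a) and 40.7% of complex V (the Atp5o readthrough record and Atp5c1, the gamma subunit of the rotor).

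Per length the order changed. On the scale of CPM per kb of gene body over all named nuclei (mean ± SD, n = 4), the highest level was that of Cox7c, at 9.50 ± 0.52, followed in complex IV by Cox8a at 7.54 ± 1.05, both small structural subunits of cytochrome c oxidase. In complex V, Atp5b, the catalytic beta subunit, stood at 3.59 ± 0.37, Atp5a1, the alpha subunit, at 3.27 ± 0.27 and Atp5l, the g subunit of the membrane part, at 3.24 ± 0.20, and the ranges of these 3 over the libraries overlapped, although Atp5b stood above Atp5a1 within each of the 4 libraries. In complex I, the assembly factor Ndufaf7 stood at 3.30 ± 0.06 and the core subunit Ndufs3 at 2.91 ± 0.10. In complex II, Sdha at 1.85 ± 0.05 and Sdhb at 1.67 ± 0.08 stood above Sdhc at 0.93 ± 0.02 and Sdhd at 0.37 ± 0.02, the membrane anchors.

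The promoters of 77 genes of the chain were found in RefSeq (GRCm38.p6), as the 250 bases before and 50 after the start, and 18 were not. They were searched on both strands for the core motifs of 3 factors known from respiratory chain promoters. GCGCATGCG, the core for NRF1, occurred in 10 of the 77 promoters (13.0%) against 1.95% of 27025 genes with a promoter. CCGGAAG, read by ETS factors such as GABP, occurred in 19 (24.7%) against 9.93%. AAGATGGCG, read by YY1, occurred in 8 (10.4%) against 1.64%. At least 1 of the 3 stood in 31 promoters (40.3%) against 12.7% of all, which is a description of letters and not of binding. The NRF1 core is nearly its own reverse complement, so that 1 site can match on both strands. Among the genes described below as higher in PV-like nuclei, 33 had a promoter and 12 of these held a motif (36.4%), against 12 of 29 (41.4%) among tested genes that did not rise, so the risers did not hold more motifs. The 5 sequences that follow were picked among those 12 to show each motif in place, and capitals mark the motif letters on either strand.
Ndufaf4 (assembly factor of complex I, chr4:24897833-24898132, plus strand, NRF1 core): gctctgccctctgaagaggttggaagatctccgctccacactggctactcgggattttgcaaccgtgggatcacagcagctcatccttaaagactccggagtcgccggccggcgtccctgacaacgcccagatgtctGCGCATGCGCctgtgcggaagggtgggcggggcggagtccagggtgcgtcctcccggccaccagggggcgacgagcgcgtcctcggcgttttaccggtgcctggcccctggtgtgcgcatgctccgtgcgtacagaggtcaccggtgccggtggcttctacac
Uqcrc1 (core protein of complex III, chr9:108936398-108936697, plus strand, NRF1 core): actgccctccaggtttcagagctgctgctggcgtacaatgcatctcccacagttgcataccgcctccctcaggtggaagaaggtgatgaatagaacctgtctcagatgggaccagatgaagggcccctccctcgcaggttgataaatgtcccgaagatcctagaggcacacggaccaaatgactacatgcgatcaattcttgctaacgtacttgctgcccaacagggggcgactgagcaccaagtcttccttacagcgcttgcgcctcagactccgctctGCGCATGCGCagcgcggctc
Atp5l (g subunit of complex V, chr9:44920693-44920992, minus strand, NRF1 core and ETS): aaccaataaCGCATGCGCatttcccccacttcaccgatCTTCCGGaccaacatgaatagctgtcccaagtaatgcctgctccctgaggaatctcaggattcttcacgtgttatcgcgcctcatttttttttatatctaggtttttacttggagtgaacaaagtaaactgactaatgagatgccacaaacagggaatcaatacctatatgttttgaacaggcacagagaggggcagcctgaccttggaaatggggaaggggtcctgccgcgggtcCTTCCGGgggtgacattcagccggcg
Sdhb (iron-sulfur subunit of complex II, chr4:140961021-140961320, plus strand, ETS): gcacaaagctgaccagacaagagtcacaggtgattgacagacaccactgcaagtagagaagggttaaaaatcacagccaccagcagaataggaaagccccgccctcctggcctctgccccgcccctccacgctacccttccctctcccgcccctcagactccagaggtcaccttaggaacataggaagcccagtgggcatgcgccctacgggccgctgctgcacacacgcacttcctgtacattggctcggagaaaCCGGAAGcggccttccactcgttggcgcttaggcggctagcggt
Ndufs4 (accessory subunit of complex I, chr13:114388045-114388344, minus strand, YY1): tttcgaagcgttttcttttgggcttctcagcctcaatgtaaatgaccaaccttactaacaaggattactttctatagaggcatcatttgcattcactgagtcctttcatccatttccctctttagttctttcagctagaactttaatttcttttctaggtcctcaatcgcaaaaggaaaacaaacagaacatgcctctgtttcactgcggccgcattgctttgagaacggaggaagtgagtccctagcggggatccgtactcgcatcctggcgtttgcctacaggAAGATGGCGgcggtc

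The clearest pattern among neurons was in PV-like nuclei. Their summed level over all complexes was 2065 and 2097 CPM in the control libraries and 2099 and 1993 CPM in the CrT-KO libraries, and the next subclass, SST-like, stood at 1614, 1556, 1458 and 1460 CPM in the same order. The lowest of the 13 neuronal subclasses was Layer 6b-like, with a mean of 1071 CPM. PV-like nuclei were the highest subclass for each of the 5 complexes in 4 of 4 libraries, with no overlap with SST-like nuclei in the summed level. Over the mean of the LAMP5-like, SST-like and VIP-like subclasses, the ratio of the summed level was 1.40 ± 0.05 (SD, n = 4 libraries).

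**Figure D1:**
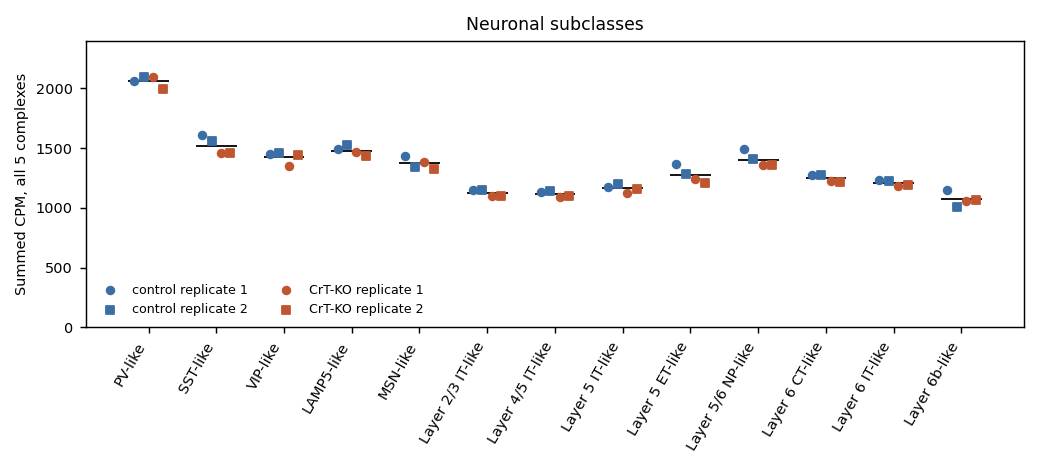
Summed CPM of all nuclear respiratory chain genes (y axis) in the 13 neuronal subclasses (x axis), with 1 point per library and a bar for the mean of 4 libraries. PV-like nuclei lie between 1993 and 2099 CPM, above every library of the other subclasses.

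The ratio was about the same for each complex. It was 1.41 ± 0.06 for complex I (981 CPM in PV-like nuclei), 1.38 ± 0.14 for complex II (167 CPM), 1.41 ± 0.11 for complex III (158 CPM), 1.41 ± 0.19 for complex IV (209 CPM) and 1.39 ± 0.04 for complex V (548 CPM). These ratios did not differ beyond their spread between libraries. Other gene lists did not share the size of the ratio. Cytosolic ribosomal protein genes had a ratio of 0.98 ± 0.03 and mitochondrial ribosomal protein genes one of 1.13 ± 0.04, whereas chain partners outside the symbol rule, such as cytochrome c and assembly factors of complexes III, IV and V, had 1.32 ± 0.03. Genes encoded by mitochondrial DNA went the other way, with a ratio of 0.57 ± 0.03, and their part in the result was not tested.

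Gene by gene, 75 of the 95 genes passed the filter on low counts in the test of PV-like nuclei against the other three subclasses (edgeR quasi-likelihood test on UMIs summed per library, library as a block, Benjamini-Hochberg adjustment over all genes tested). With an adjusted p under 0.1 and a log2 fold change of at least 1, no gene of the chain was called, against 12.2% of all 11267 genes tested, and DESeq2 called 0 too. Without the fold minimum, a count added after these values were seen, 40 of the 75 genes rose in PV-like nuclei and 0 fell, while 22.1% of all genes tested rose and 18.5% fell. DESeq2 found 35. The median log2 fold change of the 75 genes was 0.47 against 0.02 over all genes tested, and 68 lay above 0. The other 20 of the 95 genes had too few counts to be tested.

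**Figure D2:**
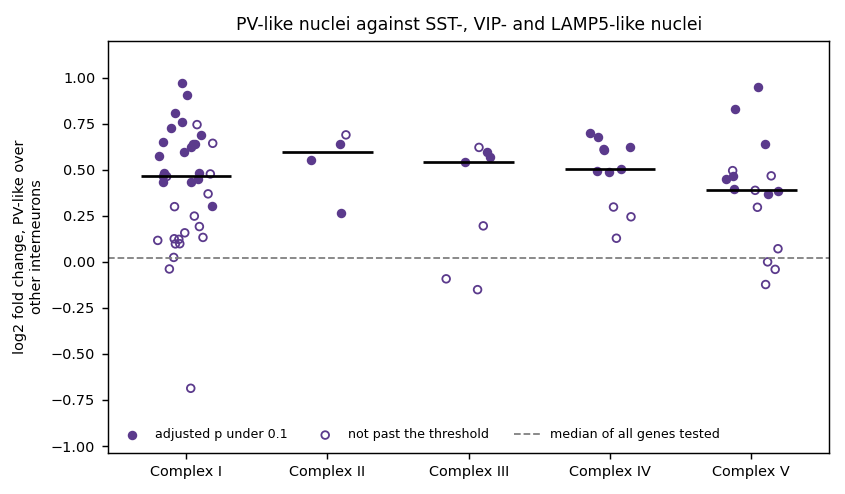
Log2 fold change of PV-like nuclei over LAMP5-, SST- and VIP-like nuclei (y axis) for the 75 tested genes by complex (x axis), with filled points for an adjusted p under 0.1, a bar for the median of each complex and a dashed line for the median of all genes tested. In every complex most points lie above the dashed line at 0.02, and no filled point lies below it.

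In complex I, 19 of 37 tested genes rose, with a median log2 fold change of 0.46. Ndufs1 (chr1:63143596-63176833, minus strand) stood at 102 and 115 CPM in control and 120 and 104 CPM in CrT-KO PV-like nuclei, and at 58.0 to 89.4 CPM in the libraries of the other three subclasses. The groups did not overlap, and the log2 fold change was 0.57 (SE 0.08, adjusted p 1.27e-08). Ndufs4, the gene of the complex with the most UMIs, rose by 0.43 (SE 0.07, adjusted p 1.66e-07) on the log2 scale. Ndufv1, which binds NADH, stood at 10.5, 3.68, 6.496 and 3.49 CPM in PV-like nuclei, inside the range of the other subclasses, with a log2 fold change of -0.04 (SE 0.27, adjusted p 0.947).

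Of the assembly factors of complex I, 4 of 6 tested rose, with a median log2 fold change of 0.37, and 2 of them had the largest rises in the complex. Ndufaf2 (chr13:108002715-108158623, minus strand), a chaperone of the late steps of complex I assembly, stood at 78.9 and 98.9 CPM in control and 90.5 and 93.2 CPM in CrT-KO PV-like nuclei. In the other three subclasses Ndufaf2 ranged from 21.7 to 69.2 CPM, below every PV-like library, and its log2 fold change was 0.90 (SE 0.10, adjusted p 1.21e-11). Ndufaf4 (chr4:24898083-24905001, plus strand), whose promoter with an NRF1 core is printed with the sequences, stood at 20.5, 30.8, 28.8 and 24.9 CPM in PV-like nuclei and at 7.25 to 22.9 CPM in the others. Ndufaf4 overlapped in 1 PV-like library with SST-like nuclei and rose by a log2 fold change of 0.97 (SE 0.17, adjusted p 3.36e-06). Ndufb9, an accessory subunit that shares its strand and place with Gm49356, had the lowest value of the 75 genes, a log2 fold change of -0.69 (SE 0.47, adjusted p 0.274), and did not pass the test.

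In complex II, 3 of 4 genes rose. Sdhb (chr4:140961203-140979193, plus strand) stood at 36.6 and 53.4 CPM in control and 47.5 and 51.3 CPM in CrT-KO PV-like nuclei, against 20.02 to 37.4 CPM in the other three subclasses, so that control replicate 1 touched their upper end. Its log2 fold change was 0.64 (SE 0.13, adjusted p 2.28e-05). Sdhc rose by 0.55 (SE 0.14, adjusted p 0.000693) and Sdha by 0.26 (SE 0.08, adjusted p 0.00573) on the log2 scale. Sdhd had 48 UMIs in PV-like nuclei and a log2 fold change of 0.69 (SE 0.39, adjusted p 0.179), which did not pass.

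In complex III, 3 of 7 tested genes rose, which were both core proteins and Uqcrh, the hinge protein near cytochrome c1. Uqcrc1 (chr9:108936633-108949623, plus strand) stood at 35.7, 33.1, 30.0 and 34.4 CPM in PV-like nuclei and at 10.0 to 32.5 CPM in the others. The 2 ranges overlapped at their edge, with a log2 fold change of 0.60 (SE 0.14, adjusted p 0.000584). Uqcrc2 rose by 0.54 (SE 0.09, adjusted p 8.79e-07) on the log2 scale. Uqcrfs1, the Rieske iron-sulfur protein, had 33 UMIs in PV-like nuclei and a log2 fold change of 0.19 (SE 0.44, adjusted p 0.783).

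In complex IV, 7 of 11 tested genes rose, with a median log2 fold change of 0.50. Cox5a (chr9:57521274-57532426, plus strand), a matrix-side subunit, stood at 28.8 and 35.4 CPM in control and 36.5 and 30.9 CPM in CrT-KO PV-like nuclei. Cox5a did not overlap with the other three subclasses, which lay between 7.17 and 28.2 CPM, and its log2 fold change was 0.62 (SE 0.15, adjusted p 0.00034). Cox6c rose by 0.50 (SE 0.19, adjusted p 0.0454) and Cox7c by 0.61 (SE 0.12, adjusted p 0.000219) on the log2 scale. Cox4i1 could not be measured.

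In complex V, 8 of 16 tested genes rose, with a median log2 fold change of 0.39. Atp5l (chr9:44912557-44920742, minus strand) stood at 49.7 and 63.0 CPM in control and 64.96 and 68.3 CPM in CrT-KO PV-like nuclei. In the other three subclasses Atp5l ranged from 17.3 to 40.4 CPM, so the groups did not overlap, and its log2 fold change was 0.95 (SE 0.11, adjusted p 1.75e-11). Atp5c1 stood at 78.4, 69.9, 76.3 and 69.8 CPM in PV-like nuclei against 28.5 to 58.8 CPM, again with no overlap, and rose by 0.64 (SE 0.10, adjusted p 1.72e-07) on the log2 scale. The catalytic subunits moved less, with log2 fold changes of 0.47 for Atp5b (SE 0.13, adjusted p 0.00192) and 0.40 for Atp5a1 (SE 0.11, adjusted p 0.00191), and the difference from Atp5l was not tested.

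Genes that work with the chain were looked at beside it. Of 32 tested chain partners, 14 rose in PV-like nuclei and 0 fell, with a median log2 fold change of 0.35, and Cycs, cytochrome c itself, rose by 1.00 (SE 0.33, adjusted p 0.0128). Of 13 regulators of mitochondrial genes, 5 rose and 0 fell. Ppargc1a, a coactivator of mitochondrial biogenesis, stood at 326, 306, 309 and 383 CPM in PV-like nuclei and rose by 2.11 (SE 0.09, adjusted p 7.13e-31) on the log2 scale. Esrrg, an orphan nuclear receptor that partners with it, rose by 2.11 (SE 0.06, adjusted p 1.43e-37). Of the mitochondrially encoded genes, 11 of 11 tested fell, with a median of -0.82. RNA of other cells was gauged with Slc17a7, the vesicular glutamate transporter of excitatory neurons, which was lower in PV-like nuclei by a log2 fold change of -1.21 (SE 0.27, adjusted p 0.000191), and with the summed excitatory markers, which had a ratio of 1.17 ± 0.06. The summed level of the chain in PV-like nuclei was 1.76 ± 0.05 times that in excitatory neurons.

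Layer 5 ET-like neurons, large projection neurons that leave the cortex, were compared with the mean of the other excitatory subclasses. Their summed level was 1368, 1288, 1244 and 1209 CPM, a ratio of 1.07 ± 0.03. By the rule with the fold minimum 0 of 75 genes were called, against 8.47% of all genes tested. DESeq2 called 1, with its share over all genes not counted. Without the fold minimum 17 of 75 rose, a share near the 21.2% of all genes tested, so no rise of the chain is read from it. Another 5 of 75 fell, against 18.7% of all genes tested, and the median log2 fold change was 0.14. Among genes past the threshold without the fold minimum, the largest rises by edgeR were Ndufb9 at 0.98 (SE 0.36, adjusted p 0.026) and Uqcr10, a small subunit of complex III, at 0.71 (SE 0.27, adjusted p 0.0366). The assembly factor Ndufaf5 followed at 0.56 (SE 0.10). The largest falls were Cox7b2 at -0.76 (SE 0.26), Ndufs5 at -0.50 (SE 0.18) and Cox8a at -0.48 (SE 0.15), all past the threshold. Ppargc1a rose here too, by 1.62 (SE 0.07) on the log2 scale.

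Across the major cell classes, inhibitory neurons were set against excitatory neurons first. The summed level was 1641 and 1576 CPM in control and 1575 and 1526 CPM in CrT-KO inhibitory neurons, and 1213 and 1191 CPM in control and 1143 and 1138 CPM in CrT-KO excitatory neurons. Every inhibitory library lay above every excitatory one, with a ratio of 1.35 ± 0.02. Of the 48 genes tested, 48 had a log2 fold change above 0, and 38 rose against 29.1% of all genes tested, with a median of 0.26. With the fold minimum 0 were called, against 13.6%, and DESeq2 called 0. The largest rises were Ndufaf5 at 0.64 (SE 0.05), Atp5a1 at 0.55 (SE 0.06) and Ndufv3, an accessory subunit of complex I, at 0.49 (SE 0.12). In this comparison 11 of 11 mitochondrially encoded genes rose as well, with a median log2 fold change of 1.26, and their part in the result was not tested.

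**Figure D3:**
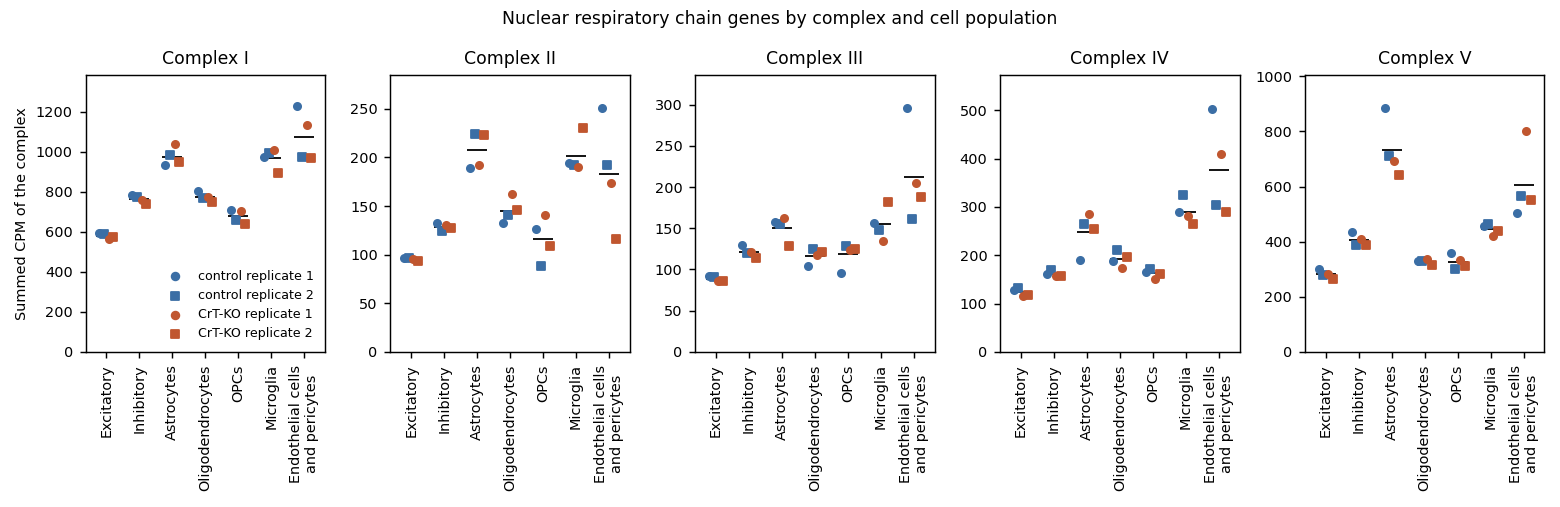
Summed CPM of each complex (y axes, from 0) in the 7 named populations (x axes), with 1 point per library and a bar for the mean of 4 libraries. Excitatory neurons hold the lowest mean in every complex on this scale, and endothelial cells and pericytes show the widest spread between libraries. Scaled to genes under 20 kb, mitochondrially encoded ones included, the sum over all complexes is lower in oligodendrocytes, OPCs and microglia than in excitatory neurons.

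The order of glia and vascular cells depended on the scaling. As CPM of all UMIs, the summed level over that of excitatory neurons was 1.98 ± 0.07 in astrocytes, 1.33 ± 0.03 in oligodendrocytes, 1.197 ± 0.06 in OPCs, 1.76 ± 0.03 in microglia and 2.09 ± 0.28 in endothelial cells and pericytes, but scaled to the UMIs of genes with a body under 20 kb it was 1.27, 0.81, 0.95, 0.79 and 1.08, so that oligodendrocytes, OPCs and microglia turned lower. The second scale counts all genes under 20 kb, among them the mitochondrially encoded genes and ribosomal protein genes of that length. Their part in the change of order was not tested. On the second scale inhibitory neurons kept a ratio of 1.26 and PV-like nuclei one of 1.35 over the other 3 interneuron subclasses. Cytosolic ribosomal protein genes had ratios to excitatory neurons of 2.02 in oligodendrocytes, 3.86 in microglia and 4.69 in endothelial cells and pericytes, and mitochondrially encoded genes 5.66, 28.2 and 20.7. The summed excitatory markers stood at 0.16, 0.25 and 0.45 of their level in excitatory neurons in the same 3 populations, and how much of the chain's RNA there came from other cells was not tested.

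By the rule with the fold minimum, few single genes of the chain were called in glia and vascular cells, a smaller share than among all genes tested in each. Without the minimum, of 48 genes 19 rose and 10 fell in oligodendrocytes, 22 and 5 in microglia and 24 and 0 in astrocytes. In OPCs 3 rose and 6 fell, and in endothelial cells and pericytes 12 and 4. Among all 9061 genes tested these counts were 3642 and 3610, 3364 and 3640, 2727 and 2866, 2430 and 2903, and 1761 and 2797 in the same order. In oligodendrocytes 1 of 48 was called against 41.3% of all genes, the Atp5o readthrough record, lower by a log2 fold change of -1.40 (SE 0.10). In microglia 3 were called against 46.8%. Cox8a stood at 52.3, 62.7, 58.9 and 44.1 CPM in microglia against 13.6 to 19.6 CPM in excitatory neurons, with a log2 fold change of 1.08 (SE 0.17), and Cox7c at 41.8, 64.2, 65.5 and 60.7 CPM against 16.6 to 18.7 CPM, with 1.06 (SE 0.15). Neither gene overlapped between the populations, and the Atp5o readthrough record was lower, at -1.75 (SE 0.15). In OPCs 2 were called against 30.2%, Cox7a2l at -1.38 (SE 0.42) and Ndufab1, the mitochondrial acyl carrier protein, at -1.13 (SE 0.49).

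In astrocytes 6 of 48 genes were called, all higher, against 38.8% of all genes tested. Behind the Atp5o readthrough record, at a log2 fold change of 1.504 (SE 0.11), came Ndufs5, an accessory subunit of complex I, which stood at 55.3, 29.2, 24.0 and 40.8 CPM against 8.52 to 9.97 CPM in excitatory neurons. Ndufs5 did not overlap between the populations, with a log2 fold change of 1.39 (SE 0.26). Ndufa6, at 1.25 (SE 0.46), was the third. In endothelial cells and pericytes 9 genes were higher and 3 lower, against 36.2% of all genes called. Ndufa6 rested on 14 UMIs there and varied from 6.21 to 59.1 CPM between libraries, with a log2 fold change of 2.00 (SE 0.57). Atp5g2, which encodes the c subunit of the ATP synthase ring, was higher by 1.496 (SE 0.37) and Cox6a1 by 1.46 (SE 0.39), while Ndufaf5 at -1.45 (SE 0.47), Uqcrc1 at -1.22 (SE 0.56) and Cox5a at -1.09 (SE 0.49) were lower.

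Isoforms of the same subunit were compared as shares of the UMIs of the pair, with exact binomial 95% intervals that cover counting error only. Cox6a2, known as the heart and muscle isoform of subunit VIa, gave 16 of 187 UMIs of the pair Cox6a1 and Cox6a2 in PV-like nuclei, a share of 8.56% (4.97 to 13.5%). The shares in the libraries were 5.45 and 10.9% in control and 12.5 and 5.26% in CrT-KO, so each library had some. In SST-like nuclei it gave 0 of 88 UMIs (upper bound 4.11%), in VIP-like nuclei 0 of 31 (upper bound 11.2%), in LAMP5-like nuclei 2 of 33, a share of 6.06% (0.74 to 20.2%) that overlaps the interval of PV-like nuclei, and in excitatory neurons 12 of 1574, a share of 0.76% (0.39 to 1.33%). Cox6a2 (chr7:128205435-128206387, minus strand) did not pass the filter on low counts, and with no filter it was called higher in PV-like nuclei (adjusted p 0.00546), as was Ndufa3 (adjusted p 0.0705).

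**Figure D4:**
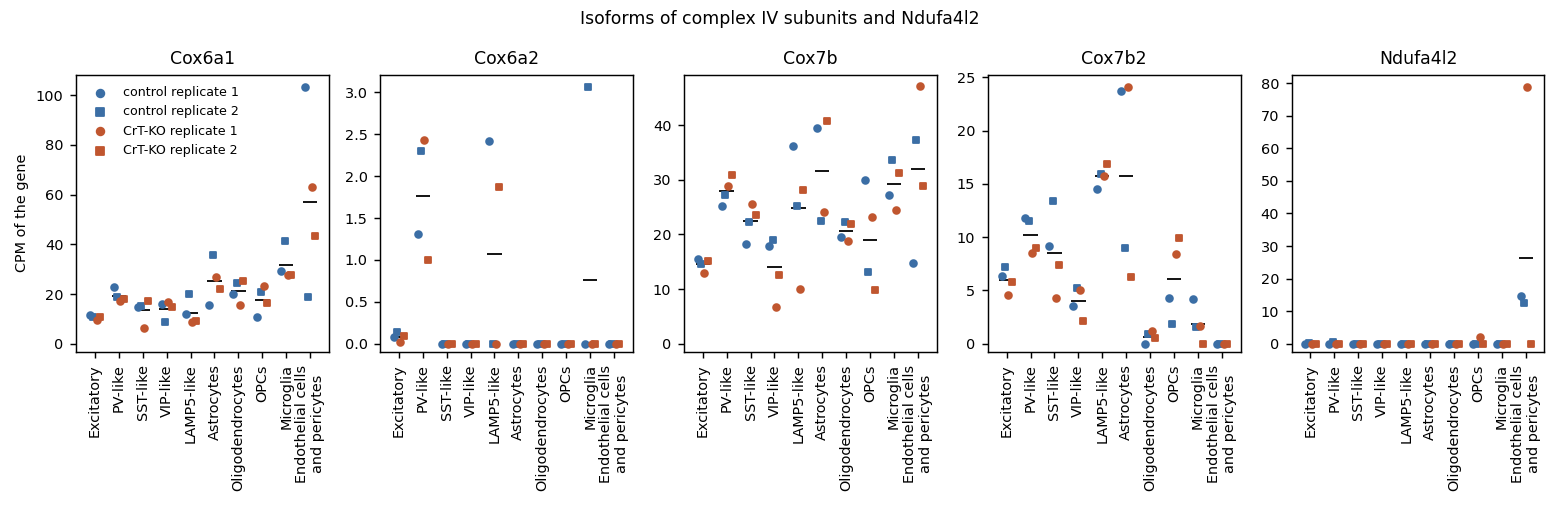
CPM (y axes) of Cox6a1, Cox6a2, Cox7b, Cox7b2 and Ndufa4l2 in excitatory neurons, interneuron subclasses and glial and vascular populations (x axes), with 1 point per library and a bar for the mean. Cox6a2 lies above 0 in all 4 PV-like libraries, Cox7b2 is near 0 in oligodendrocytes, and Ndufa4l2 in endothelial cells and pericytes reaches 78.7 CPM in 1 library.

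Cox7b2, known from testis, gave 29.0% (27.4 to 30.7%) of the UMIs of Cox7b and Cox7b2 in excitatory neurons and 30.7% (28.0 to 33.4%) in inhibitory neurons, but 3.14% (1.03 to 7.19%) in oligodendrocytes, where 5 of 159 UMIs fell on it. The intervals of neurons and oligodendrocytes did not overlap. With introns counted, these shares carry the length of the genes, 105.4 kb for Cox7b2 and 6.75 kb for Cox7b, and per length over all named nuclei Cox7b2 stood at 0.060 and Cox7b at 2.40 CPM per kb. In microglia the share was 5.63% (1.56 to 13.8%), in OPCs 22.2% and in astrocytes 32.1%, the last from 17 of 53 UMIs. With doublets kept the share in oligodendrocytes was 11.6%, and the part of neuronal RNA in it was not tested. Ndufa4l2, a paralog of Ndufa4 known from pericytes and low oxygen, gave 13 of 19 UMIs of the pair in endothelial cells and pericytes (68.4%, 43.4 to 87.4%) and 7 of 1104 (0.63%) in excitatory neurons. Its libraries stood at 14.8 and 12.4 CPM in control and 78.7 and 0 CPM in CrT-KO, so 1 CrT-KO library held most of it and the other none.

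In the remaining pairs the restricted isoform gave few UMIs. Cox6b2 gave 8 of 108 UMIs (7.41%, 3.25 to 14.1%) in oligodendrocytes and 2 of 1572 (0.13%) in excitatory neurons, Cox7a1 gave 21 of 2397 (0.88%) over all named nuclei, and Cox8b and Cox8c gave 0 of 3702 UMIs of the Cox8 genes, which allows a share of up to 0.10%. Cox4i2, an isoform induced in low oxygen, had 35 UMIs, but with Cox4i1 unmeasured no share was set. Of the 3 genes for the same c subunit of the ATP synthase, Atp5g2 gave 55.1%, Atp5g1 26.2% and Atp5g3 18.7% of the UMIs in excitatory neurons. In PV-like nuclei the shares were 44.6% (38.2 to 51.1%), 29.2% and 26.3% (20.8 to 32.3%), and the intervals of Atp5g2 and Atp5g3 did not overlap those in excitatory neurons, 53.2 to 57.0% and 17.3 to 20.3%.

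The question of genotype was put after the targeted gene was checked. Slc6a8 stood at 6.5 and 5.58 CPM in control and 1.57 and 1.52 CPM in CrT-KO excitatory neurons, with no overlap, a log2 fold change of -1.92 (SE 0.17, adjusted p 0.00139). In inhibitory neurons it fell by 2.12 (SE 0.32, adjusted p 0.0265) on the log2 scale. Whether the remaining UMIs came from parts of the gene outside the deletion was not tested. Slc6a8 was also higher in PV-like nuclei than in the LAMP5-, SST- and VIP-like subclasses, by a log2 fold change of 1.45 (SE 0.38, adjusted p by edgeR 0.00158). That fit took in all 4 libraries, CrT-KO animals included, and the controls were not fitted alone. In PV-like nuclei Slc6a8 stood at 13.9 and 6.44 CPM in control and 4.06 and 1.5 CPM in CrT-KO (adjusted p by edgeR 0.449 between genotypes).

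No gene of the chain was called between genotypes in any population by edgeR at an adjusted p under 0.1, and DESeq2 called 0 too. Few genes of any kind were. The calls among all genes tested were 0.165% in excitatory neurons, 0.0242% in inhibitory neurons, 0.0328% in oligodendrocytes, 0.0412% in microglia, 0.0344% in OPCs, 0.0198% in astrocytes, 0.0% in endothelial cells and pericytes, 0.0538% in PV-like nuclei and 0.0403% over all named nuclei, so that a count of 0 among at most 86 tested genes did not stand apart from them. At an unadjusted p under 0.05 there were 4 of 86 genes of the chain in excitatory neurons, against 1208 of 13950 among all genes tested. The counts were 4 of 86 against 620 of 12402 in inhibitory neurons and 5 of 66 against 478 of 9301 in PV-like nuclei. Over all named nuclei there were 6 of 86 against 1042 of 14873. In glial and vascular populations there were 0 of 63 against 601 of 9145 (oligodendrocytes), 0 of 42 against 414 of 7289 (microglia), 0 of 22 against 305 of 5813 (OPCs), 0 of 24 against 233 of 5059 (astrocytes) and 0 of 4 against 67 of 2422 (endothelial cells and pericytes).

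In excitatory neurons, 86 genes were tested and 59 had a log2 fold change below 0, where 51.0% of all genes tested did, with a median of -0.07 against -0.00. At an unadjusted p under 0.05, 4 were lower against 4.43% of all genes and 0 higher, and in 34 both CrT-KO libraries lay below both controls against 29.3%. The smallest p of each complex belonged to Ndufaf2 (-0.20, SE 0.08), Sdha (0.04, SE 0.08), Uqcr10 (-0.53, SE 0.20), Cox8a (-0.27, SE 0.13) and Atp5d, the delta subunit of complex V (-0.37, SE 0.14), all log2 fold changes. Atp5d stood at 7.83 and 7.32 CPM in control and 6.10 and 5.18 CPM in CrT-KO, without overlap, and its adjusted p by edgeR was 0.482, the lowest of the 86.

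In inhibitory neurons, 86 genes were tested and 59 had a log2 fold change below 0, where 51.0% of all genes tested did, with a median of -0.08. At an unadjusted p under 0.05, 3 were lower against 2.82% of all genes and 1 higher, and in 27 both CrT-KO libraries lay below both controls against 18.7%. The smallest p of each complex belonged to Ndufa9 (-0.32, SE 0.15), Sdhd (0.18), Uqcrfs1 (-0.31), Cox5b (-0.70, SE 0.34) and Atp5l (0.29, SE 0.11). Atp5l stood at 31.7 and 31.0 CPM in control and 37.9 and 38.1 CPM in CrT-KO, without overlap, and its adjusted p by edgeR was 0.894, the lowest of the 86. In PV-like nuclei, where 66 genes were tested, 35 lay below 0 and the median was -0.06. Their summed level differed by -1.70% between genotypes and overlapped. Complex V, at 570 and 547 CPM in control and 546 and 528 CPM in CrT-KO, differed by -3.85%, and its groups were parted only by 547 against 546 CPM. Among the 9301 genes tested in PV-like nuclei, both CrT-KO libraries lay below both controls in 1655 and above them in 1483. Nothing is read from the separation of complex V. By complex, the median log2 fold changes in PV-like nuclei went both ways, at -0.02 (I), 0.13 (II), -0.07 (III), 0.06 (IV) and -0.17 (V).

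**Figure D5:**
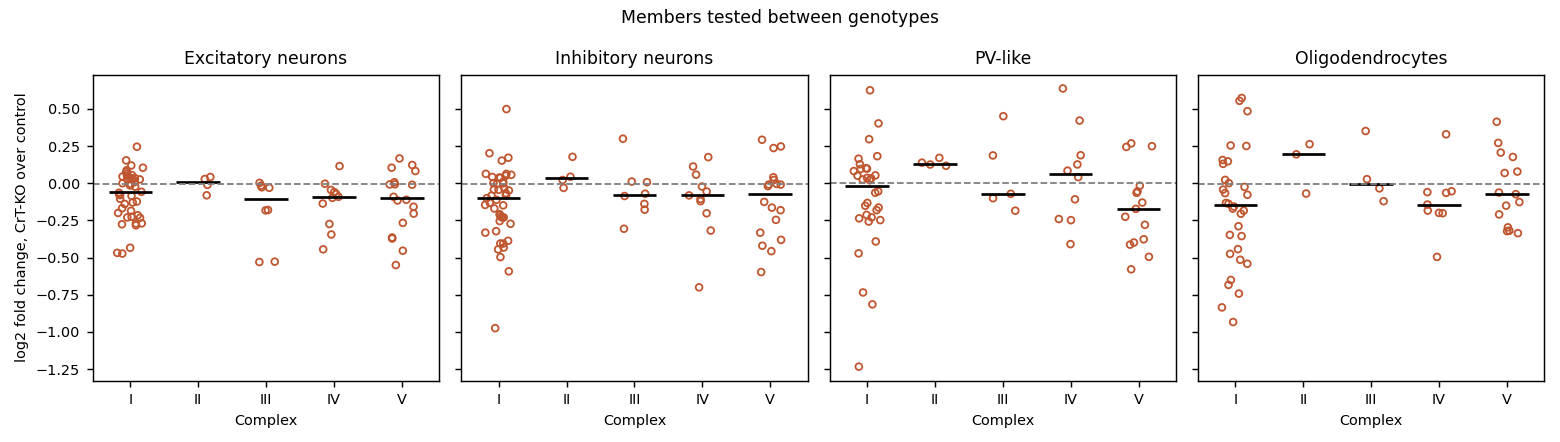
Log2 fold change of CrT-KO over control (y axis) for the tested genes of complexes I to V (x axis) in excitatory neurons, inhibitory neurons, PV-like nuclei and oligodendrocytes, with 1 open point per gene and a bar for the median of the complex. No gene passed the threshold, and in excitatory neurons the medians lie between -0.11 and 0.01.

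The summed level of each complex gave small differences of the same direction in excitatory neurons. Complex I was 596 and 591 CPM in control and 562.1 and 576 CPM in CrT-KO, a difference of -4.17%. Complex II differed by -1.995%, complex III by -5.90%, complex IV by -10.2% and complex V by -5.56%, and the libraries of the genotypes did not overlap in complexes I to IV. On this plain CPM scale single genes leaned the same way. Of 13950 tested, 4087 were lower in both CrT-KO libraries than in both controls and 1601 higher. The fitted log2 fold changes were near even, with 7112 below 0 and 6838 above, and in complex II 2 lay below 0 and 2 above. Over all complexes the difference was -5.11% in excitatory and -3.58% in inhibitory neurons, with no overlap in either. With 2 against 2 libraries no exact permutation test can go below p = 0.333, so none was run. Other lists of short genes lay below 0 too. The median log2 fold change of cytosolic ribosomal protein genes was -0.15 in excitatory and -0.23 in inhibitory neurons, that of mitochondrial ribosomal protein genes -0.09 and -0.08, and that of mitochondrially encoded genes -0.05 and -0.29. Scaled to genes under 20 kb, the difference over all complexes was -1.22% in excitatory and -0.19% in inhibitory neurons, and complex II in excitatory neurons turned to 2.00%.

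Of 15 genes of the chain that the study's bulk sequencing had listed as higher in CrT-KO, 13 were tested in each neuronal class. The bulk sequencing measured whole-tissue RNA of the cortex from other animals, with cell types not separated, so the measures differ. Cox4i1 and Ndufa13, with no UMI, were among those not tested. The median log2 fold change of the listed genes was -0.11 in excitatory and -0.11 in inhibitory neurons, 11 of 13 lay below 0 in each, and 0 were called. Beside them, 59 of 86 tested genes of the chain and 51.0% of all genes tested lay below 0 in each class. In other populations 4 of 8 listed genes lay below 0 in PV-like nuclei, 6 of 9 in oligodendrocytes and 2 of 5 in microglia. The genotype effect was also compared between populations through an interaction term in fits that kept each library as a block. No gene of the chain was called for inhibitory neurons against excitatory neurons (lowest adjusted p 0.619, against 0.157% of all genes called), for oligodendrocytes (0.632, against 0.448%) or for microglia (0.816, against 0.0785%). At an unadjusted p under 0.05 there were 6 of 87, 3 of 87 and 2 of 86 tested genes of the chain. The share of all genes at that threshold was not counted, so nothing is read from these counts.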

How the data were processed

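Single nuclei of 2 control and 2 CrT-KO cortices were sequenced with a 10x 3′ kit. The deposited matrices hold UMI counts per gene and nucleus, which the authors made with Cell Ranger 3.1.0 against a GRCm38 (mm10) pre-mRNA reference that counts introns, and analysed with Seurat 3.1.4. From these counts, doublets were removed with Scrublet, and nuclei were clustered with scanpy 1.11.5 (10000 UMIs as target, 3000 variable genes, 30 components, 20 neighbours, resolution 1.0). Clusters were named from marker lists, so names were rebuilt here and may differ from the study's. Sums of UMIs over the nuclei of a population in each library were tested with edgeR 4.0.16 (quasi-likelihood, TMM, filterByExpr, Benjamini-Hochberg over all genes tested), with DESeq2 1.42.0 as an alternative. Calls needed an adjusted p under 0.1 and, between cell types, a log2 fold change of at least 1. The scripts were tested on simulated data. Gene bodies came from GENCODE vM21, which holds 99.8% of the genes by identifier. Genes were named where they were the check of the labels, a core subunit, an isoform, the smallest p of a complex between genotypes, or among the 3 largest rises or falls called between cell types, and others were chosen after their values were seen. Under this rule 1 further gene is not reported here. The genes of the chain and the other lists were chosen with earlier results of these data known. Intervals cover counting error only, and 2 animals per genotype limit the precision.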

Additional observations from a re-analysis of the deposited data

Results flagged for a closer look

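The summed level of complex II differed in direction between populations. It was lower in CrT-KO by -1.995% in excitatory neurons and by -34.9% in endothelial cells and pericytes, and higher by 12.9% in oligodendrocytes. Only populations with every CrT-KO library on one side of every control library were taken, so that separation was a condition of the choice. Among single genes it held for 4087 lower and 1601 higher of 13950 in excitatory neurons. The counts were 1562 and 1812 of 9145 in oligodendrocytes, and 366 and 367 of 2422 in endothelial cells and pericytes. In oligodendrocytes the libraries stood at 133 and 141 CPM in control and 162 and 146 CPM in CrT-KO, and in endothelial cells and pericytes at 251 and 192 CPM in control and 173 and 116 CPM in CrT-KO, the last from 8 UMIs. In excitatory neurons the difference turned to 2.00% scaled to genes under 20 kb and to 2.87% in nuclei with no mitochondrially encoded UMI, and the median log2 fold change of the 4 genes was 0.01. The difference between populations was not tested for the summed level. Gene by gene, the interaction of genotype with oligodendrocytes against excitatory neurons called 0 of 87 tested genes of the chain (edgeR, lowest adjusted p 0.632). At an unadjusted p under 0.05 it gave 3, a count whose share over all genes was not set.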

How the results depend on the processing

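Calls between genotypes were 0 in the 108 alternatives run over 9 populations, and 0 for the interactions. With the replicate number as a block the count of genes called was 0 in every population and interaction. Deviations of libraries with the same number correlated at 0.32 in excitatory neurons, 0.25 in inhibitory neurons and 0.27 in oligodendrocytes, but with 2 pairs the libraries share only a number. Of the other values, 112 of 143 counts between cell types, 102 of 130 ratios of summed levels, 157 of 190 genotype differences and 34 of 35 isoform shares stayed within their limits. The cause of the moves that follow was not tested. Calls among all genes tested were not counted in these alternatives, so the counts below carry no share of all genes.

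Scaled to genes under 20 kb, the genotype difference in summed level became -1.22% in excitatory neurons, -0.19% in inhibitory neurons, -1.81% in microglia and -0.98% over all named nuclei. By complex in excitatory neurons it became -0.22% (I), 2.00% (II), -2.04% (III) and -6.50% (IV). The ratios to excitatory neurons became 1.26 (inhibitory), 1.27 (astrocytes), 0.813 (oligodendrocytes), 0.951 (OPCs), 0.785 (microglia) and 1.08 (endothelial cells and pericytes), that of Layer 5 ET-like neurons 1.11, and that of complex V in PV-like nuclei 1.35.

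With doublets kept, the genotype difference in microglia was -6.42%. The ratios were 1.32 (inhibitory), 1.81 (astrocytes), 1.23 (oligodendrocytes), 1.48 (microglia) and 1.31 (PV-like), the Cox7b2 share in oligodendrocytes was 11.6%, and 2 genes were called in oligodendrocytes and 1 in PV-like nuclei. With nuclei of at least 1000 UMIs, microglia gave -1.01% and a ratio of 1.72. Structural subunits alone gave -2.84% for complex I in excitatory neurons and a ratio of 1.80 in microglia. Without genes that overlap another on the same strand, an alternative chosen after seeing the data, the ratios were 1.84 (astrocytes), 1.39 (oligodendrocytes) and 1.85 (microglia), with 0 calls in oligodendrocytes.

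Nuclei with no mitochondrially encoded UMI, which are fewer, gave genotype differences of -3.71% (excitatory), 2.28% (inhibitory), 0.32% (oligodendrocytes), -20.6% (microglia) and 2.38% (PV-like), and in excitatory neurons -5.58%, 2.87%, 1.68% and -3.55% for complexes I to IV. Ratios were 1.26 (inhibitory), 2.05 (astrocytes), 1.42 (OPCs) and 1.21 (Layer 5 ET-like). Genes called were 0 in oligodendrocytes, microglia and OPCs, 2 in astrocytes, 2 in endothelial cells and pericytes, 6 in PV-like and 1 in Layer 5 ET-like nuclei. The median log2 fold change over all genes tested moved too, to 0.60 in PV-like nuclei from 0.02 and to -0.79 in OPCs from -0.05. For the tested genes of the chain in PV-like nuclei it moved to 1.07 from 0.47. Without the fold minimum 4 rose in inhibitory, 7 in PV-like and 4 in Layer 5 ET-like nuclei.

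Without a filter on low counts, genes called were 1 (inhibitory), 7 (oligodendrocytes), 10 (microglia), 5 (OPCs), 21 (endothelial cells and pericytes) and 2 (PV-like). DESeq2 called 10 in astrocytes and 1 in Layer 5 ET-like nuclei, and RLE size factors called 10 in astrocytes. Leaving out 1 library gave 1 to 3 calls in oligodendrocytes, 1 to 3 in OPCs, 0 to 4 in PV-like and 0 to 1 in Layer 5 ET-like nuclei, and without the fold minimum 11 to 14 rises in Layer 5 ET-like nuclei. In PV-like nuclei 4 were called without control replicate 1, 3 without control replicate 2 and 1 without CrT-KO replicate 1. In oligodendrocytes 3 were called without CrT-KO replicate 1 and 2 without CrT-KO replicate 2. In OPCs 1 was called without either control replicate, in Layer 5 ET-like nuclei 1 without CrT-KO replicate 1, and 11 rose there without control replicate 1.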
